A study of Solanum lycopersicum with 2 samples.

Results

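The proteinase inhibitor II cluster of tomato is a row of 5 genes with neighbouring identifiers on chromosome 3. Its members are Solyc03g020030, Solyc03g020040, Solyc03g020050, Solyc03g020060 and Solyc03g020080. They were taken by identifier, from a list chosen with earlier results of these data known. All 5 were listed in both libraries, among 25923 genes listed in either. The study placed 1 library from anthers beside 1 library from young leaves of Solanum lycopersicum cultivar Moneymaker. The plants were 8 weeks old, were grown in a glasshouse and received no treatment, so no group was wounded on purpose. The anthers were collected at several developmental stages, and the labels do not say how many plants entered a library. RNA was profiled by MACE, which reads the 3' ends of polyadenylated transcripts and is meant to give 1 read per transcript. Each gene has an estimated read number and a level in RPM (reads per 1000000 mapped reads), which is not divided by transcript length.

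Proteinase inhibitor II proteins are small plant proteins that block serine proteases of the trypsin and chymotrypsin type. In leaves of tomato and potato they are a classic product of wounding: chewing damage releases the peptide signal systemin, jasmonate is made, and the inhibitors then accumulate and hamper digestion in the insect gut. Inhibitors of this family are also known from flowers of the nightshade family, where they are made without wounding. The files pair no identifier with a gene name, so the family name is that of the list that defined the cluster and was not checked against a sequence. The RefSeq gene list of the assembly SLM_r2.1 matched 0 of the 5 members. That table holds the symbol PIN2 on chromosome 7, with the synonym SlPIN2, and the symbol CEVI57 on chromosome 3, but links neither to these identifiers. PIN2 is also the name of an auxin efflux carrier in plants, so the symbol alone identifies no member.

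The libraries held 12411606 mapped reads from anthers and 11534512 from leaves. A single read was thus worth 0.0806 RPM in anthers and 0.0867 RPM in leaves. A gene with 0 reads could still have a level of up to 3 reads, which is 0.242 RPM in anthers and 0.260 RPM in leaves. Each tissue has a single library, so the differences have no replicate check and no test between tissues was run. Intervals are 95% exact Poisson or binomial intervals that cover counting error only, since reads without molecular identifiers need not be independent molecules. In whole organs, more cells of a type and more RNA per cell cannot be told apart. The tissue labels were set beside short identifier lists put together from general knowledge of tomato loci. The lists were chosen with earlier results of these data known, so they are no independent check of the labels. All 6 stamen and pollen identifiers were higher in the anther library, with a summed level of 3078 RPM in anthers and 36.0 RPM in leaves. Of 7 leaf photosynthesis identifiers, 6 reached a 2-fold higher level in leaves and 1 lay just short of that, with summed levels of 3226 RPM in anthers and 27270 RPM in leaves. Over all 17137 tested genes, 21.5% were at least 2-fold higher in anthers and 17.5% in leaves. Each of the 7 was also present in the anther library, at 81.0 RPM or more. The part of green tissue in the anther values of the cluster was not tested.

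Taken as a sum, the cluster was abundant in anthers and scarce in leaves. Its 5 genes together had 1536 RPM in the anther library (19060 reads, interval 1514 to 1558 RPM). In the leaf library they had 16.5 RPM (190.5 estimated reads, interval 14.3 to 19.1 RPM). The summed level was therefore 93.0-fold higher in anthers, with a counting interval of 80.4 to 108. The cluster took 0.154% of the mapped reads in anthers and 0.00165% in leaves. The 5 genes did not share this difference equally, and the sum describes mainly 3 of them.

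Solyc03g020080 was the most abundant member in both tissues. It had 11148.15 estimated reads in the anther library, a level of 898 RPM (interval 882 to 915), and 88 reads in the leaf library, a level of 7.63 RPM (6.12 to 9.40). It ranked 56 by level among the 24538 genes listed in anthers but 9595 among the 22893 genes listed in leaves. Its level was 118-fold higher in anthers (95.5 to 147).

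Solyc03g020060 followed, with 6100.98 estimated reads and 492 RPM in anthers (479 to 504). In leaves it had 43.5 estimated reads and 3.77 RPM (2.77 to 5.12). It ranked 152 in anthers and 11945 in leaves, and its level was 130-fold higher in anthers (95.9 to 178).

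Solyc03g020050 was the lowest of the 3 abundant anther members, with 1758.67 estimated reads and 142 RPM in anthers (135 to 149). In leaves it had 15 reads and 1.30 RPM (0.728 to 2.14). The difference was 109-fold (65.9 to 195), and in the anther library the gene ranked 851. For these 3 genes the counting intervals of the anther level lay wholly above those of the leaf level.

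**Figure D1:**
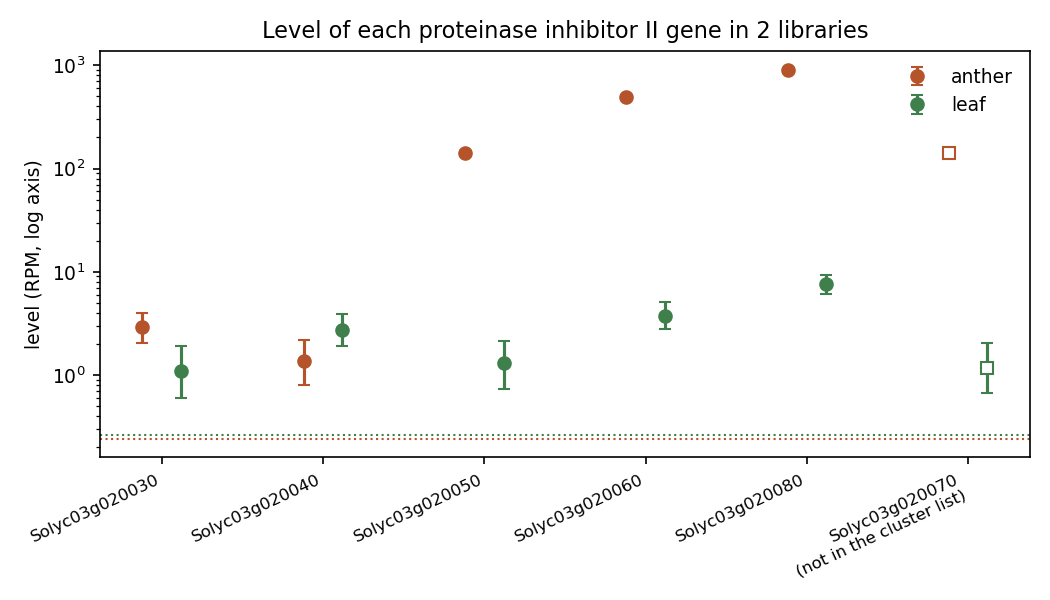
Level of each cluster gene in the anther and the leaf library, in RPM on a log axis, with 95% exact Poisson intervals (counting error only). Open squares are Solyc03g020070, which lies between the members by identifier but is not one of them, and dotted lines are the levels that 3 reads give. The anther points of Solyc03g020050, Solyc03g020060 and Solyc03g020080 sit at 142 to 898 RPM, far above their leaf points, while those of Solyc03g020030 and Solyc03g020040 stay under 3 RPM.

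The remaining 2 members had few reads in both libraries, below the median listed gene, which had 55 reads in anthers and 51 in leaves. Solyc03g020030 had 35.8 estimated reads in anthers and 12.5 in leaves, levels of 2.89 RPM (2.03 to 4.02) and 1.08 RPM (0.600 to 1.93). Its level was 2.66-fold higher in anthers, with a wide interval of 1.33 to 5.29. Solyc03g020040 went the other way, with 16.8 estimated reads and 1.36 RPM in anthers (0.798 to 2.19) against 31.5 estimated reads and 2.73 RPM in leaves (1.90 to 3.92). Its level was 2.01-fold higher in leaves (1.09 to 3.89), and it alone of the 5 had its higher value there. The intervals of the 2 levels overlapped for Solyc03g020040 and did not for Solyc03g020030. Summed, this pair had 4.24 RPM in anthers and 3.81 RPM in leaves, a 1.11-fold difference whose interval of 0.736 to 1.71 includes equality.

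The members were then placed among all genes by log2((anther RPM + 1) / (leaf RPM + 1)), for genes whose mean over the 2 libraries reached 1 RPM. A log2 ratio of at least 1 is called at least 2-fold, and the added 1 RPM makes the difference of low genes look smaller. All 5 members passed the level filter. Of these, 3 were at least 2-fold higher in anthers, 0 in leaves and 2 lay between, where 21.5% of the 17137 tested genes were at least 2-fold higher in anthers and 17.5% in leaves, 39.1% in either direction. The log2 ratios were 6.70 for Solyc03g020080, 6.69 for Solyc03g020060 and 5.95 for Solyc03g020050. Lower ratios were held by 99.7%, 99.7% and 99.5% of the tested genes. Solyc03g020030 had 0.90 and Solyc03g020040 had -0.66, above 76.2% and 23.3% of the tested genes. The median of the 5 was 5.95, and that of all tested genes was 0.15. The place of Solyc03g020030 just under the 2-fold line depends on the setting: its log2 ratio was 1.33 with a pseudocount of 0.1 RPM and 1.05 when levels were scaled to reads on listed genes, which makes 4 members at least 2-fold higher in anthers.

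**Figure D2:**
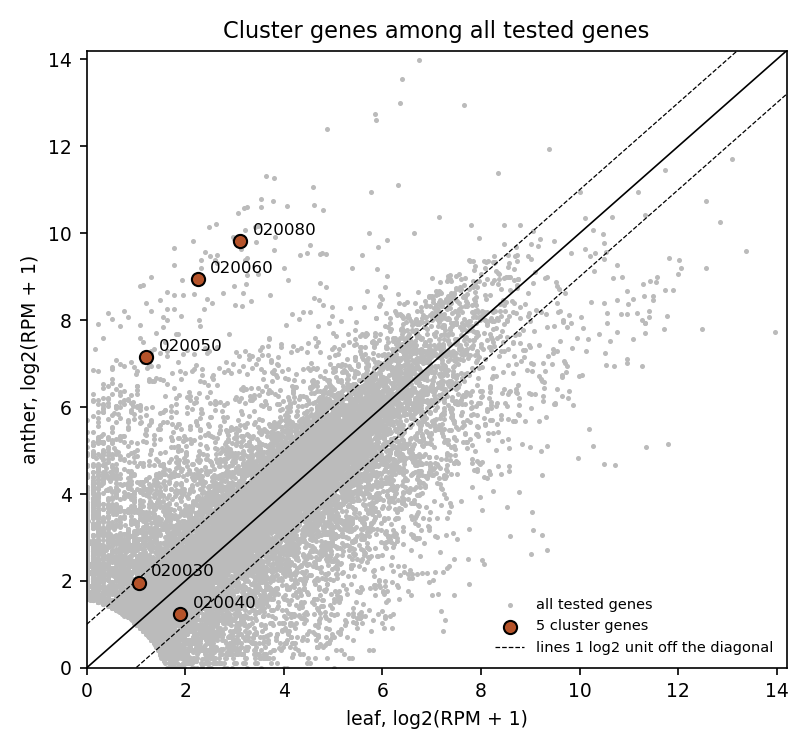
Anther level against leaf level, both as log2(RPM + 1), for the 17137 tested genes (grey) and the 5 cluster genes (coloured, marked by the last 6 digits of the identifier). The solid line marks equal levels and the dashed lines a log2 ratio of 1 in either direction. The 3 abundant cluster genes lie at the upper edge of the cloud, with log2 ratios of 5.95 to 6.70, and the other 2 lie between the dashed lines.

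The abundant members differed in level beyond counting error, while the intervals of their tissue ratios overlapped. In anthers Solyc03g020080 had 1.83 times the reads of Solyc03g020060 (1.77 to 1.89), which had 3.47 times those of Solyc03g020050 (3.29 to 3.66). These are ratios of read numbers, since no transcript lengths for these identifiers were used here. Between Solyc03g020060 and Solyc03g020080 the ratio of the anther over leaf folds was 1.09, with an interval of 0.753 to 1.61. It was 0.926 (0.530 to 1.73) for Solyc03g020050 relative to Solyc03g020080 and 0.846 (0.460 to 1.64) relative to Solyc03g020060. Each of these 3 intervals includes 1, but they are wide because the leaf counts are small, and they do not show that the 3 folds are equal. Solyc03g020030 stood apart from all 3, its fold being 0.0219 times that of Solyc03g020080 (0.0109 to 0.0466). For Solyc03g020040 the same ratio was 0.00422 (0.00211 to 0.00816).

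The order of the members by reads was not the same in the tissues. In anthers the order was Solyc03g020080, Solyc03g020060, Solyc03g020050, Solyc03g020030 and Solyc03g020040, and each neighbouring pair differed beyond its counting interval. In leaves Solyc03g020040 moved up to the third place, ahead of Solyc03g020050 and Solyc03g020030. There Solyc03g020060 and Solyc03g020040 did not differ beyond counting error (ratio 1.38, interval 0.852 to 2.24), nor did Solyc03g020050 and Solyc03g020030 (1.15, 0.512 to 2.63). As shares of the cluster's reads, Solyc03g020080 held 58.5% in anthers (57.8% to 59.2%) and 46.1% in leaves (38.9% to 53.4%). Solyc03g020060 held 32.0% in anthers (31.3% to 32.7%) and 23.0% in leaves (17.3% to 29.7%). The share of Solyc03g020050 was 9.23% in anthers (8.82% to 9.65%) and 7.85% in leaves (4.46% to 12.6%). Solyc03g020040 made up 0.0892% of the anther reads of the cluster (0.0520% to 0.143%) and 16.8% of its leaf reads (11.8% to 22.8%). Solyc03g020030 made up 0.189% in anthers (0.132% to 0.261%) and 6.81% in leaves (3.67% to 11.4%).

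The read numbers of the cluster are estimates that were partly divided among genes. None of the 5 members had whole-number reads in both libraries. Counted in each library by itself, fractional counts were held by 20.8% of all genes listed in anthers and 19.5% of those listed in leaves. In anthers the parts after the decimal point were 0.833 for Solyc03g020030, 0.833 for Solyc03g020040, 0.667 for Solyc03g020050, 0.983 for Solyc03g020060 and 0.15 for Solyc03g020080. In leaves Solyc03g020030, Solyc03g020040 and Solyc03g020060 each ended in 0.5 and the other 2 were whole. A fraction shows that some reads were split, which is taken here as reads that matched several places, but not how many were split. The split between the members is therefore uncertain. Their sums, 19060.47 estimated reads in anthers and 190.5 in leaves, are fractional too, so reads were also shared with genes or places outside the 5. With every estimate rounded down to whole reads, the log2 ratio of the sum was 6.47 instead of 6.46. Rounding down took only 3.47 reads from the anther sum and 1.5 from the leaf sum. It could hardly move the ratio, and it does not show how many reads were split.

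Between Solyc03g020060 and Solyc03g020080 lies Solyc03g020070, a gene outside the cluster list, and its values resembled those of the abundant members. It had 1768.98 estimated reads and 143 RPM in anthers (136 to 149), and 13.5 estimated reads and 1.17 RPM in leaves (0.664 to 2.04). Its level was 122-fold higher in anthers (69.8 to 215), and its log2 ratio was 6.05. The fractional part of its anther count, 0.983, was the same as that of Solyc03g020060. With this gene added, the summed level was 1678 RPM in anthers and 17.7 RPM in leaves, 94.9-fold apart (82.7 to 109). What Solyc03g020070 encodes is not given in the sources used here. Together with it, 4 consecutive identifiers from Solyc03g020050 to Solyc03g020080 were 109-fold to 130-fold higher in anthers. This run was picked out after the values were seen. Reads may also have been split among these genes, so they need not be 4 independent cases.

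No listed neighbour before or after the cluster had a log2 ratio near those of the abundant members. The 5 listed identifiers before it and the 5 after it were compared as neighbours by identifier number. After Solyc03g020090 the next listed identifier is Solyc03g025130, a wide jump in number, and distances on the chromosome were not checked. The nearest gene before it, Solyc03g020020, had 15.1 RPM in anthers and 14.7 RPM in leaves, a log2 ratio of 0.04. It was the only 1 of the 5 before the cluster whose mean reached 1 RPM. Of the other 4, Solyc03g019970 had 14 reads in anthers and was not listed in leaves, and its log2 ratio of 1.09 would pass the 2-fold line without the level filter. Of the 5 after it, 3 passed that level, and 2 of them, Solyc03g025140 and Solyc03g025160, were at least 2-fold higher in anthers, with log2 ratios of 1.66 and 1.35, where 21.5% of all tested genes were. The nearest gene after it, Solyc03g020090, had 0.5 estimated reads in anthers and was not listed in leaves. All 5 members and Solyc03g020070 carried the same strand label, written cri, which 12935 of the 25923 listed genes carry.

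**Figure D3:**
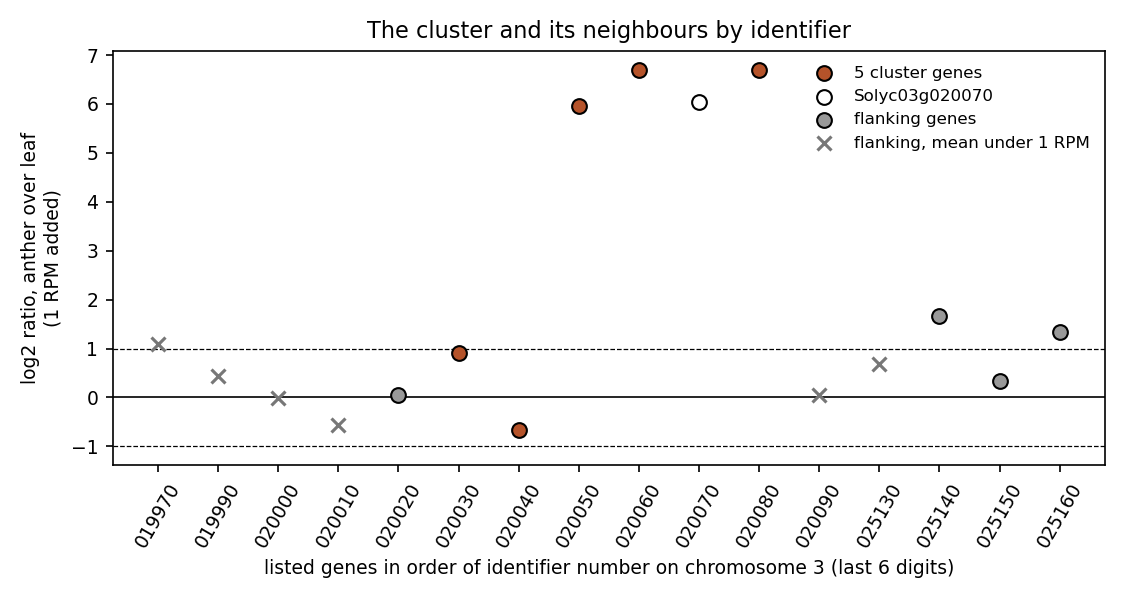
Log2 ratio of anther over leaf, with 1 RPM added, for the cluster genes, Solyc03g020070 and the 5 listed genes on either side, in order of identifier number on chromosome 3. Dashed lines mark a log2 ratio of 1 in either direction and crosses are genes with a mean under 1 RPM. The listed identifiers jump from Solyc03g020090 to Solyc03g025130. Solyc03g020050 to Solyc03g020080 stand at 5.95 to 6.70, and no flanking gene exceeds 1.66.

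The abundant members had high peaks beside their read numbers. The deposited peak height is the height of the gene's highest read peak, and it is given here as a percentage of the gene's reads, the peak share, although nothing in the headers says that only those reads form the peak. In anthers the peak share was 73.1% for Solyc03g020080, 61.8% for Solyc03g020060 and 58.1% for Solyc03g020050. In leaves it was 73.9%, 62.1% and 66.7%, in the same order of genes. Genes whose peak exceeded their own read number, 79 in anthers and 63 in leaves among those with at least 10 reads, were left out of the comparison. They show that a peak need not be made of the gene's own estimated reads alone. The median of the other genes with at least 10 reads was 28.6% in anthers (17443 genes) and 28.5% in leaves (16125 genes). The 3 members lay above 92.0% to 97.3% of those genes in anthers and above 94.1% to 97.4% in leaves. In leaves Solyc03g020050 had a peak height of 10 beside 15 reads, so its share there rests on few reads. Solyc03g020040 had shares closer to the median, 35.6% and 34.9%. Solyc03g020030 had a peak height of 29 beside 35.8 estimated reads in anthers, a share of 80.9%, and of 4.5 beside 12.5 estimated reads in leaves, a share of 36.0%, both from few reads. With peak height in place of reads, the log2 ratio of the cluster sum was 6.55. Solyc03g020070 had a higher peak share than any member, 92.5% in anthers and 94.4% in leaves.

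**Figure D4:**
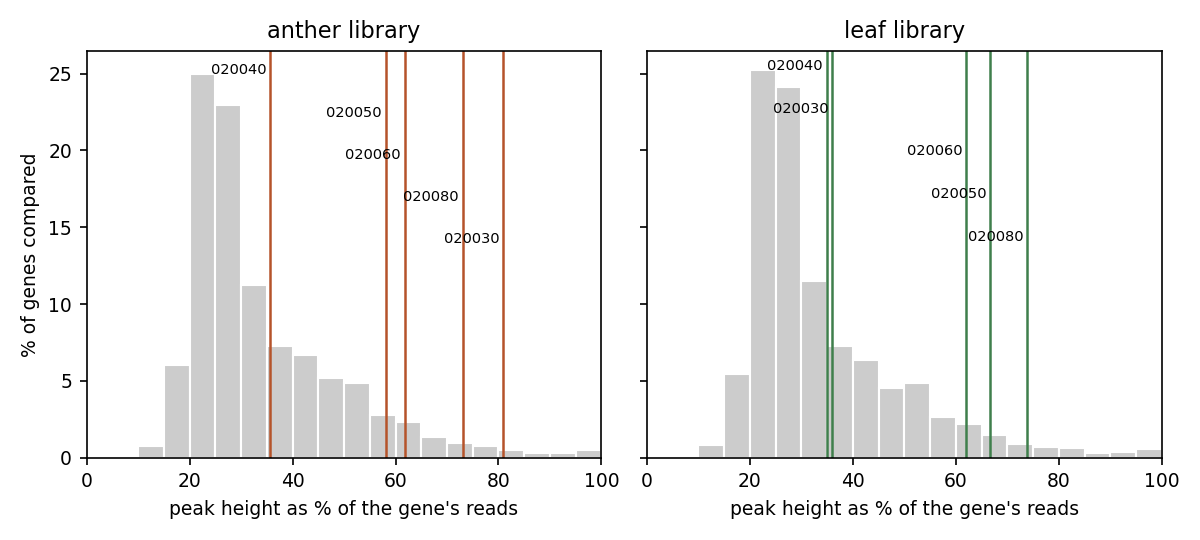
Height of the highest read peak as a percentage of the gene's reads, across genes that had 10 reads or more and a peak no higher than their reads (grey bars, % of these genes per 5-point bin) and for the 5 cluster genes (vertical lines, marked by the last 6 digits), in the anther library and the leaf library. Solyc03g020050, Solyc03g020060 and Solyc03g020080 lie at 58.1% to 73.9% in both libraries, to the right of most genes, whose median is 28.6% in anthers and 28.5% in leaves.

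Proteinase inhibitor I, an unrelated family of small serine protease inhibitors, accumulates together with inhibitor II in wounded tomato leaves. Its genes were looked up as 2 blocks of identifiers on chromosome 9, from general knowledge of tomato loci, since the files hold no names. Of the 12 identifiers, 11 were at least 2-fold higher in anthers and 1, Solyc09g089540, was higher in leaves, where 21.5% and 17.5% of all tested genes were. The 6 genes of the block near Solyc09g084 summed to 6750 RPM in anthers and 130 RPM in leaves, and their log2 ratios ran from 4.04 to 6.47. The 6 genes of the block near Solyc09g089 summed to 1570 RPM in anthers and 327 RPM in leaves, with log2 ratios from -3.35 to 5.11. Beside these sums, the inhibitor II cluster had 1536 RPM in anthers and 16.5 RPM in leaves. All 12 inhibitor I genes had a fractional count in at least 1 library, as did all 5 inhibitor II genes. So did all 7 leaf photosynthesis identifiers, 3 of the 6 stamen and pollen identifiers and 5 of the 11 wound identifiers described below. The share of all genes on this measure was not computed. Within a single library it was 20.8% in anthers and 19.5% in leaves. Peak shares of the inhibitor I genes in anthers ran from 20.5% to 60.5%, with a median of 32.8%, against a median of 61.8% for the 5 inhibitor II genes.

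Genes of wound signalling and of other wound-inducible proteins were looked up as a further list of 11 identifiers, also from general knowledge. A mean of 1 RPM was reached by 9 of them, of which 2 were at least 2-fold higher in anthers, 2 in leaves and 5 lay between. Both shares are close to those of all tested genes, 21.5% and 17.5%. The list median was -0.49, against 0.15 for all tested genes. The 2 higher in anthers were Solyc09g008670, at 7922 RPM in anthers and 200.3 RPM in leaves, and Solyc12g010020, at 730.1 RPM in anthers and 25.7 RPM in leaves. Higher in leaves were Solyc01g091170, at 14.1 RPM in anthers and 71.7 RPM in leaves, and Solyc03g122340, at 19.2 RPM in anthers and 53.0 RPM in leaves. These genes, like the neighbours named above, were named after their values were seen.

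**Figure D5:**
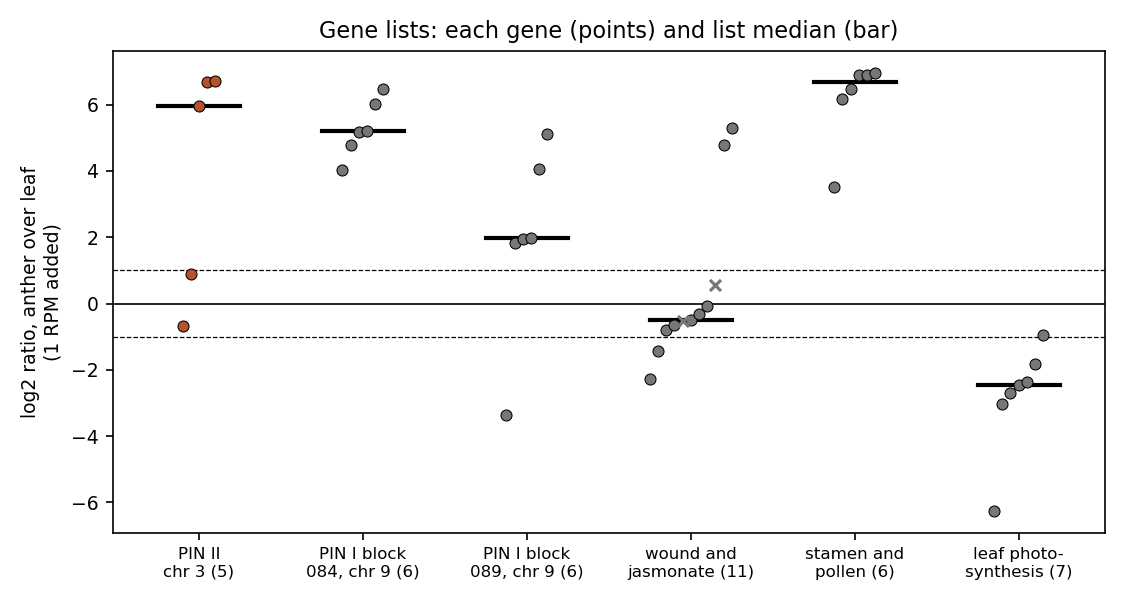
Log2 ratio of anther over leaf, with 1 RPM added, for each gene of the inhibitor II cluster, the 2 inhibitor I blocks, the wound and jasmonate list and the stamen, pollen and leaf lists. Points are genes, crosses genes with a mean under 1 RPM, bars the median of the genes at 1 RPM or more, and numbers in brackets the identifiers per list. The cluster splits into 3 genes at 5.95 to 6.70 and 2 at 0.90 and -0.66. The block near Solyc09g084 lies wholly above 4 and the wound list has a median of -0.49.

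By level in both tissues, the genes most like Solyc03g020080 were Solyc04g081000 on chromosome 4 and Solyc05g050700 on chromosome 5. Likeness was the distance between the pairs of log2(RPM + 1) values over the 2 libraries, and it was 0.13 and 0.14. Solyc04g081000, which is also on the stamen and pollen list, had 936 RPM in anthers and 6.94 RPM in leaves. Solyc05g050700 had 986 RPM in anthers and 7.37 RPM in leaves. With 2 libraries such likeness means only that the levels were close in both.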

How the data were processed

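One MACE library per tissue was used, grouped by its tissue label. Per the labels' protocols, poly-A RNA was enriched and the 3' ends were sequenced. The authors deposited estimated counts per gene (called all hits), the mapped reads of the library, a scaled value and a peak height as a signal value, per the file headers. The mapped reads are a deposited whole-number count, the same in every line of a file. The deposited scaled value is RPM, although the header calls it transcripts: it equals the estimated count divided by mapped reads times 1000000 to within 1.45e-08 (anther) and 3.42e-08 (leaf), with no length correction by the authors. The submitters' processing notes name FastQC. How reads were aligned and counted, and on which genome build and annotation, is not given in the sources used.

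Genes absent from a file were taken as 0. Estimated counts were rounded for intervals (exact Poisson for levels, exact conditional Poisson for folds, exact binomial for shares, conditional odds ratio for ratios of folds). Log2 ratios used a pseudocount of 1 RPM, and genes needed a mean of at least 1 RPM. A count was called whole within 1e-06 reads. Python 3.11.15, scipy 1.17.1 and, for TMM factors on rounded counts, edgeR 4.0.16 were used. The calls and intervals were run on simulated independent Poisson reads. Those hold no split reads and no spread between plants, so they cannot show how the intervals fare with such errors. The members and lists were chosen with earlier results of these data known. The 5 members were always named, with the 2 genes nearest in level to the most abundant member. Alternatives were pseudocounts of 0.1 and 5 RPM, TMM scaling, scaling to listed reads, no filter or 10 RPM, rounding down, peak heights and leaving out the top member.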

Additional observations from a re-analysis of the deposited data

How the results depend on the processing

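The log2 ratio of the cluster sum, 6.46, was 6.16 with a pseudocount of 5 RPM and 6.01 without Solyc03g020080. In the 6 other settings it moved by less, on the log2 scale, than the counting interval of the fold extends from the fold itself, and over all 8 it ran from 6.01 to 6.55. Rounding down is among these 6, but it takes less than 1 read from each gene and could hardly move the sum. TMM scaling moved the median of all tested genes by -0.13, from 0.15 to 0.02, and gave 6.31 for the sum. The count of members at least 2-fold apart was 3 or 4 in 8 settings, including the addition of Solyc03g020070, which was chosen after seeing the data. Each member kept its sign in 6 settings, where Solyc03g020030 ran from 0.37 to 1.33 and Solyc03g020040 from -0.96 to -0.28. The counts for proteinase inhibitor I (11 to 12), the wound list (4 in each) and the flanking genes (2 to 4) stayed within 1.5 times in 7 settings each. The sum over members with whole-number reads could not be made, since 0 had them. No paired analysis was possible because there is only 1 library per tissue, and no replicate could be left out. Depth limits Solyc03g020030 and Solyc03g020040, which rest on 12.5 to 35.8 estimated reads per library.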
